A study of Mus musculus with 12 samples.

Results

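The comparison described here set lung libraries from mice carrying acute myeloid leukaemia (AML) against lung libraries from mice without leukaemia, across all genes with enough counts. Its members were chosen by their labels alone: 3 lung AML and 3 lung control libraries, 6 of the 12 libraries in the series, the others being bone marrow. All mice belonged to the VECadCre-tdTomato line, in which the VE-cadherin promoter drives Cre recombinase and Cre-exposed cells carry the red fluorescent protein tdTomato. The AML mice had been transplanted with AML cells whose Trp53 gene, the tumour suppressor p53, carried the R172H allele and a deletion (Δ). The control mice had received no transplant, so the effect of leukaemia and that of the transplant procedure cannot be told apart in this design. Per the labels the material was VE-cadherin-positive endothelial cells, and RNA was sequenced with kits for very low input. The labels used here do not give strain background, sex, age, time after transplant or number of mice. Nothing states that replicates are different mice, and the p-values then cover only the spread among these libraries, which may be technical. Total counts lay between 24112555 and 39163571 per library. Levels are counts per 1000000 (CPM), scaled by the TMM method, and values listed for a group are in the order of replicates 1, 2 and 3. Counts of calls without each library in turn keep the same order. The intervals and floors given below cover counting error only.

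Lung blood vessels are lined by endothelial cells that differ along the vascular tree: aerocytes form the thin capillaries of gas exchange, general capillary cells keep the capillary bed supplied with new cells, and arterial, venous and lymphatic cells have programmes of their own. VE-cadherin, encoded by Cdh5, joins endothelial cells to each other, and the VEGF, apelin and Notch pathways govern their growth and identity. Acute myeloid leukaemia is a cancer of immature myeloid blood cells that fills the marrow and can spread through the blood to other organs.

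The gene list with the largest share of counts in these libraries was that of alveolar epithelium, against the endothelial label. Sftpc, which encodes the surfactant protein C made by alveolar type 2 cells, had the most counts of any gene in each of the 6 libraries, with between 11.6% and 17.2% of all counts. The alveolar type 2 list took 22.2, 20.6 and 24.5% of the counts in lung controls 1, 2 and 3 and 25.6, 27.5 and 26.3% in lung AML 1, 2 and 3. In contrast, the 28 pan-endothelial genes took 0.476, 1.55 and 0.634% in the controls and 0.0502, 0.157 and 0.0756% in the AML libraries. All 28 were detected in every library, so the endothelial markers were present but small in share, and the samples are called lung libraries below. These shares follow read counts and are not scaled by gene length. The pan-endothelial share did not overlap between the groups and was 9.43 times higher on average in the controls (exact permutation test, two-sided, p = 0.10, the smallest value that 3 libraries against 3 can give). Without lung control 2 it was 5.89 times higher, an alternative chosen after seeing the data. Many other gene lists reached the same exact permutation p of 0.10 in either direction, among them alveolar type 2, pan-leukocyte and heat shock. The lack of overlap therefore does not set the endothelial list apart. In bulk RNA, fewer cells of a type and less RNA per cell cannot be told apart.

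Libraries within the control group differed among themselves. Lung control 2 stood apart with the highest pan-endothelial share and the lowest fibroblast share, 1.93, 0.5204 and 1.87% in controls 1, 2 and 3 against 2.15, 1.699 and 1.15% in the AML libraries. Lung control 1 stood apart in genes of ciliated airway cells, with 0.6902, 0.208 and 0.123% in controls 1, 2 and 3 against 0.0744, 0.0657 and 0.0732% in the AML libraries. Leukocyte genes in general took a narrow range, 0.0942, 0.0939 and 0.0964% in the controls and 0.0732, 0.0613 and 0.07802% in the AML libraries.

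**Figure D1:**
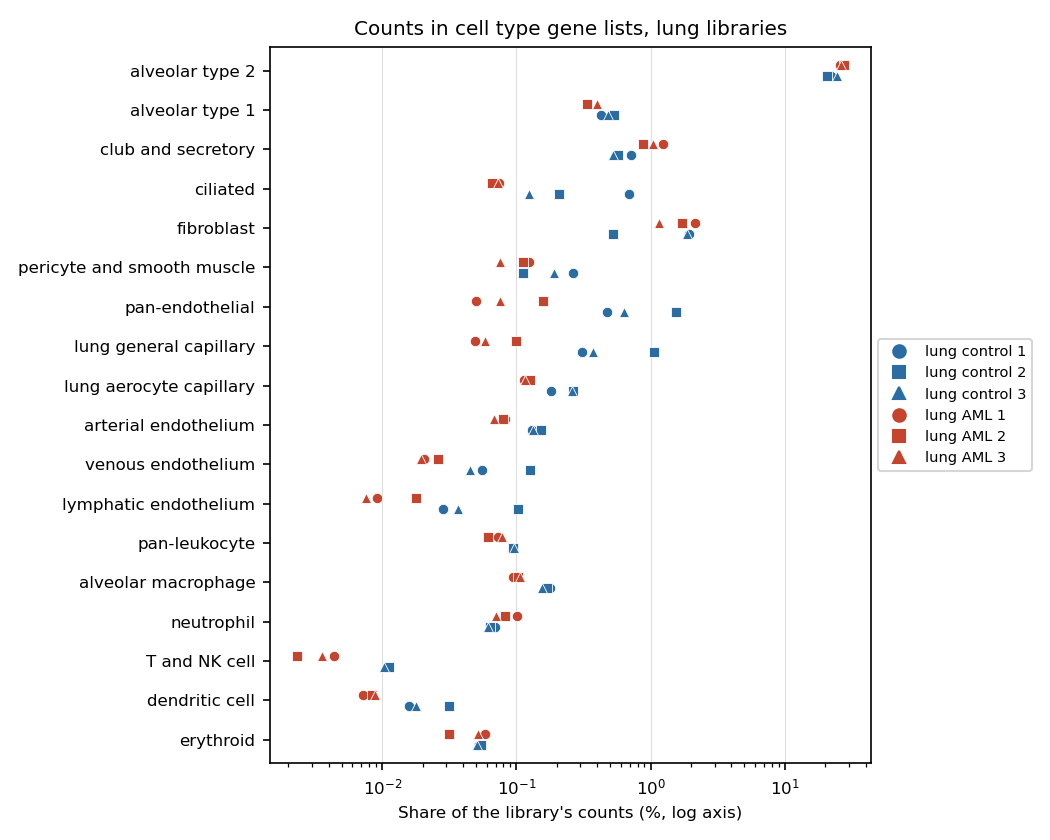
Share of each lung library's counts held by 18 cell type gene lists, on a log axis, with 1 point per library (blue for lung control, red for lung AML, and the symbol for the replicate number). The alveolar type 2 list lies at 20.6% or more in every library, while the pan-endothelial list lies between 0.476% and 1.55% in the controls and between 0.0502% and 0.157% in the AML libraries.

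Of 55291 gene symbols, 16439 had enough counts to be tested in these 6 libraries. Between lung AML and lung control 1239 genes, or 7.54% of those tested, passed an adjusted p of 0.05 in edgeR's quasi-likelihood test, 545 of them higher in AML (3.32%) and 694 lower (4.22%). The median log2 fold change over all tested genes was -0.02, and with library totals in place of TMM scaling it was -0.09. In 6009 genes (36.6%) the 2 groups did not overlap, and 4756 had an unadjusted p under 0.05. The libraries were not equal in what they contributed. Without lung AML 1 or lung AML 3 the number of calls was 11 and 14, and it was 294 without lung AML 2, against 1097, 1080 and 2001 without lung controls 1, 2 and 3. All 1239 genes kept their direction and an unadjusted p under 0.05 in each of these 6 fits. Among the genes named here, Fkbp5, Gsta3 and Pdk4 passed both without lung AML 1 and without lung AML 3, Hif3a and Rhag passed without lung AML 1, and Fmo2, Ngp, Sult1a1 and Tgfbr3 passed without lung AML 3. Every other call among the genes chosen by the naming rule was lost without lung AML 1 and without lung AML 3, and for the main gene groups the count in each such fit is given. Genes were named by a rule on fold change, p-value and level, and list members named beyond it were chosen with their values known.

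The genes that fell followed lung control 2 more often than genes in general. Lung control 2 was the highest control library for 481 of the 694 lower genes (69.3%), for 85 of the 545 higher genes (15.6%) and for 33.8% of all tested genes. Of the 1239 calls, 871 were called again when lung control 2 was left out. Its high endothelial share was given above, and the part of that share in the individual falls was not tested.

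**Figure D2:**
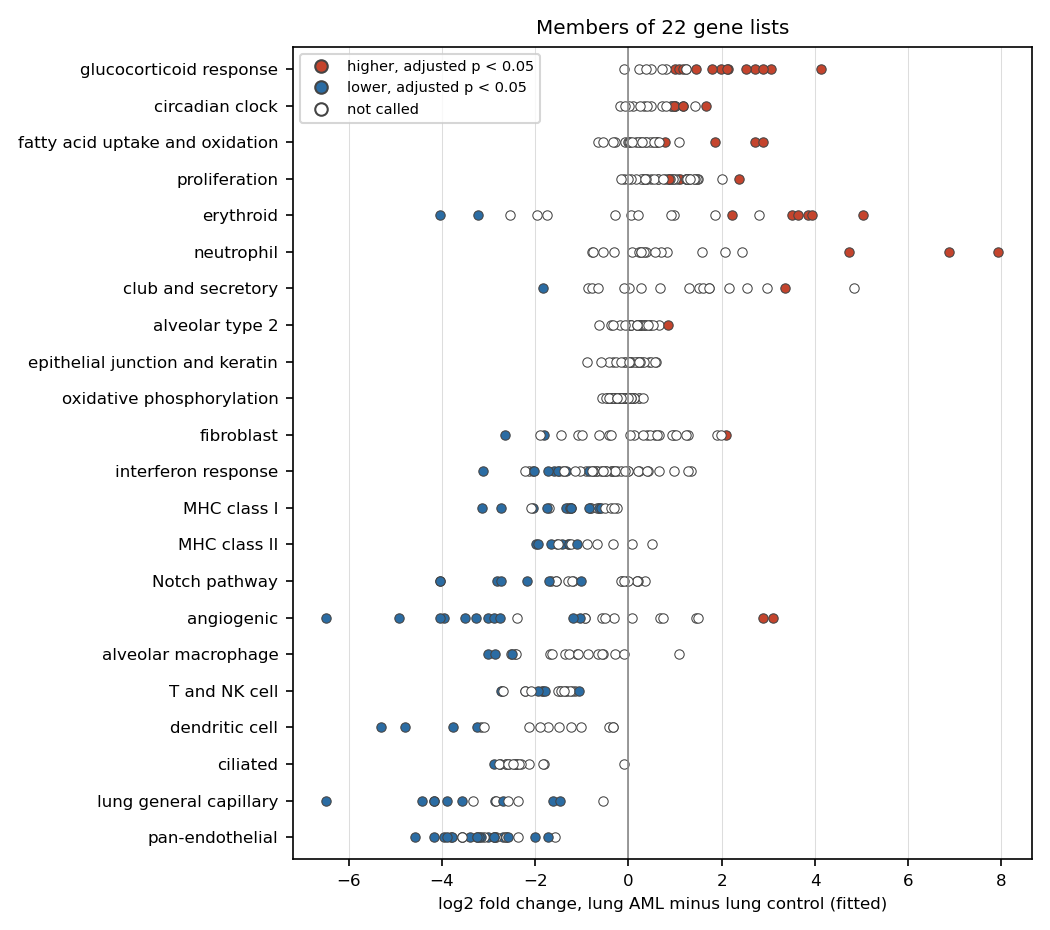
Fitted log2 fold changes, lung AML minus lung control, for the tested members of 22 gene lists, 1 point per gene, filled where the gene passed an adjusted p of 0.05 (red higher, blue lower). All 28 pan-endothelial genes lie below 0 and 20 of 21 glucocorticoid response genes lie above 0, while epithelial junction and oxidative phosphorylation genes spread around 0 with no call.

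Genes of endothelial identity were lower throughout. Of 28 pan-endothelial genes tested, 28 had a negative log2 fold change and 18 fell, with a median of -3.13 beside -0.02 over all tested genes. The count was 15, 12 and 16 without each control in turn and 0, 10 and 0 without each AML library, and the median was -2.39 without lung control 2.

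Cdh5 itself, the gene of VE-cadherin, measured 71.6, 315 and 133 CPM in the controls and 3.604, 29.3 and 11.1 CPM in AML. Every AML library was below every control, but values were widely spread within both groups. The gene missed the threshold (log2 fold change -3.57 ± 0.87 (SE), edgeR adjusted p = 0.0556), also without lung control 2 (edgeR adjusted p = 0.0911). Pecam1, the platelet and endothelial adhesion molecule CD31, likewise measured 237, 805 and 308 CPM in the controls and 18.4, 106 and 60.7 CPM in AML and did not pass (log2 fold change -2.87 ± 0.73 (SE), edgeR adjusted p = 0.0614). The call for Cdh5 turned on the setting, with adjusted p from 0.00309 in DESeq2 to 0.207 in edgeR without a filter on low counts, and for Pecam1 it ran from 0.000116 to 0.218 under the same settings. Receptors of the pathways that maintain endothelium did pass. Kdr, the main VEGF receptor, measured 145, 514 and 315 CPM in the controls and 12.2, 33.3 and 17.0 CPM in AML (log2 fold change -3.97 ± 0.59 (SE), edgeR adjusted p = 0.0198). Tek, the angiopoietin receptor Tie2, measured 206, 715 and 275 CPM in the controls and 19.5, 54.6 and 27.4 CPM in AML (log2 fold change -3.56 ± 0.61 (SE), edgeR adjusted p = 0.02498). Clec14a, an endothelial lectin-like receptor, measured 293, 945 and 360.2 CPM in the controls and 9.81, 39.05 and 17.96 CPM in AML (log2 fold change -4.58 ± 0.71 (SE), edgeR adjusted p = 0.0205). In all of these genes the highest AML library was lung AML 2, which also had the highest pan-endothelial share of its group, and the highest control was lung control 2. These genes are members of the pan-endothelial list, so their counts are part of that share. Sox7, an endothelial transcription factor, fell with them (-3.25, edgeR adjusted p = 0.0227), as did Tie1 (-3.81, edgeR adjusted p = 0.0308), Erg (-3.40, edgeR adjusted p = 0.0372) and Eng (-3.15, edgeR adjusted p = 0.0337).

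The lists for single vessel types had negative medians as well. Among general capillary genes 10 of 15 fell (median -2.87). The count was 9, 8 and 10 without each control in turn and 0, 5 and 0 without each AML library. Among aerocyte genes 4 of 13 fell (median -1.29). The count was 6, 5 and 4 without each control in turn and 0, 3 and 0 without each AML library. For arterial genes it was 6 of 14 (median -1.53). The count was 5, 5 and 4 without each control in turn and 0, 0 and 0 without each AML library. The venous and lymphatic lists held 3 of 10 (median -1.65) and 4 of 9 falls (median -1.98), and without lung control 2 they held 2 and 1. No member of the 5 vessel type lists rose. Venous genes that fell were Prss23 (-2.41, edgeR adjusted p = 0.0177), Bst1 (-1.72, edgeR adjusted p = 0.0306) and the leukocyte adhesion molecule Vcam1 (-1.07, edgeR adjusted p = 0.0314), and Flt4, the VEGF receptor of lymphatic vessels, fell with the chemokine gene Ccl21a and with Mmrn1 and Gng11 among lymphatic genes.

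The apelin pathway lost transcripts of both ligand and receptor. Aplnr, the apelin receptor of general capillary cells, measured 73.9, 273 and 82.7 CPM in the controls and 1.23, 2.52 and 1.11 CPM in AML. Controls and AML libraries were thus far apart (log2 fold change -6.48 ± 0.71 (SE), edgeR adjusted p = 0.0157). Apln, the apelin ligand made by aerocytes and by sprouting vessels, measured 17.3, 37.9 and 35.9 CPM in the controls and 0.9201, 0.946 and 1.15 CPM in AML (log2 fold change -4.92 ± 0.37 (SE), edgeR adjusted p = 0.00510). The median of the pan-endothelial list was -3.13, and the difference of Aplnr from it was not tested. Per 1000 counts of pan-endothelial genes, Aplnr had 15.6, 18.6 and 13.03 in lung controls 1, 2 and 3 and 2.44, 1.51 and 1.46 in lung AML 1, 2 and 3. On the same scale Kdr, itself a member of that list, had 30.7, 34.99 and 49.7 in lung controls 1, 2 and 3 and 24.3, 19.9 and 22.4 in lung AML 1, 2 and 3. The ratio scale is a description of these libraries, chosen after the values were seen, and no test was made on it. It was not low for every endothelial gene: Prx, periaxin, an aerocyte gene, had 19.01, 12.4 and 21.7 in lung controls 1, 2 and 3 and 38.99, 57.4 and 69.4 in lung AML 1, 2 and 3 per 1000 pan-endothelial counts.

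Further genes had falls of the same size or larger. Cyp1a1, a cytochrome P450 induced through the aryl hydrocarbon receptor, measured 28.2, 709 and 27.9 CPM in the controls and 0.435, 0.552 and 1.299 CPM in AML. With all libraries it had the largest fall of any named gene (log2 fold change -8.42 ± 1.74 (SE), edgeR adjusted p = 0.0374), but lung control 2 stood far above the other controls. Without lung control 2 its log2 fold change was -5.22 (edgeR adjusted p = 0.00643), and that of Aplnr was larger, at -5.61. The Cyp1a1 call was lost in limma-voom (adjusted p = 0.0835) and in edgeR without a filter on low counts (adjusted p = 0.156). It was also lost with a replicate block (edgeR adjusted p = 0.0511) and against a 1.5-fold change (edgeR adjusted p = 0.0723). Without each AML library in turn the edgeR adjusted p was 0.139, 0.128 and 0.141. Glp1r, the receptor of glucagon-like peptide 1, measured 147, 506 and 151 CPM in the controls and 3.17, 13.4 and 6.34 CPM in AML (log2 fold change -5.14 ± 0.78 (SE), edgeR adjusted p = 0.0199). Gbp4, an interferon-inducible guanylate-binding protein gene, measured 47.01, 122 and 52.4 CPM in the controls and 1.02, 2.68 and 1.83 CPM in AML (log2 fold change -5.35 ± 0.55 (SE), edgeR adjusted p = 0.0157). In both genes controls 1 and 3 lay close together and far above all AML libraries. Ackr4, a scavenger receptor for chemokines, measured 7.39, 26.8 and 10.1 CPM in the controls and 0.511, 0.433 and 0.344 CPM in AML (log2 fold change -5.08 ± 0.60 (SE), edgeR adjusted p = 0.0157). Tnfsf10, the death ligand TRAIL, measured 49.7, 255 and 64.8 CPM in the controls and 4.12, 5.24 and 4.28 CPM in AML (log2 fold change -4.76 ± 0.70 (SE), edgeR adjusted p = 0.0198). The remaining members of the 12 largest falls were Ankrd63 (-5.57), Ccl21a (-5.50), Cd300lg (-4.84), Pcdh12 (-4.65) and Syt15 (-4.62), with edgeR adjusted p between 0.018 and 0.0333. Pcdh12 encodes an endothelial protocadherin, and Cd300lg a receptor of capillary endothelium.

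Signalling lists that contain endothelial genes showed the same direction for those genes. In the angiogenic list 11 of 24 genes fell and 2 rose (median -0.99), and falls numbered 10, 6 and 8 without each control in turn and 0, 4 and 0 without each AML library. Pdgfb, the growth factor by which endothelium recruits pericytes, measured 24.7, 79.2 and 36.4 CPM in the controls and 3.58, 4.61 and 4.202 CPM in AML (log2 fold change -3.50 ± 0.46 (SE), edgeR adjusted p = 0.0171). The risers were Angptl4 and Igfbp3, the latter at 57.98, 24.8 and 155 CPM in the controls and 773, 659.8 and 613 CPM in AML (log2 fold change 3.10 ± 0.63 (SE), edgeR adjusted p = 0.0366), and Vegfa itself, the main growth factor of vessels, did not pass (-0.93, edgeR adjusted p = 0.0981). In the Notch pathway 7 of 22 genes fell and none rose (median -1.20), with falls at 7, 4 and 7 without each control in turn and 0, 0 and 0 without each AML library. Hey1, a target of Notch in arteries, measured 43.6, 128 and 39.7 CPM in the controls and 4.601, 4.65 and 3.48 CPM in AML (log2 fold change -4.05 ± 0.52 (SE), edgeR adjusted p = 0.0167), and the ligand gene Dll4 measured 50.7, 203 and 81.8 CPM in the controls and 1.99, 13.8 and 4.89 CPM in AML (log2 fold change -4.03 ± 0.84 (SE), edgeR adjusted p = 0.0382). Among TGF-beta and BMP genes 7 of 31 fell and 2 rose (median -0.34), with falls at 6, 9 and 7 without each control in turn and 0, 2 and 0 without each AML library. Falls included the ligand Bmp6 (-4.17, edgeR adjusted p = 0.0193), the endothelial receptor Acvrl1 (-3.22, edgeR adjusted p = 0.0312), the inhibitor Smad6 (-2.90, edgeR adjusted p = 0.0171) and the BMP target Id1 (-1.99, edgeR adjusted p = 0.0456). Tgfbr3, the co-receptor betaglycan, went the other way, at 75.3, 87.1 and 106 CPM in the controls and 387, 428 and 369.5 CPM in AML (log2 fold change 2.14 ± 0.17 (SE), edgeR adjusted p = 0.00510).

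Genes induced by glucocorticoid hormones rose together. Glucocorticoids are adrenal steroids that act through a nuclear receptor, and in the lung they induce surfactant and anti-inflammatory genes. Of 21 list members tested, 13 rose and none fell, 20 had a positive log2 fold change and the median was 1.24. Rises numbered 12, 12 and 11 without each control in turn and 3, 6 and 3 without each AML library. Beside the 3.32% of all tested genes that rose, this is 61.9% of the list.

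Fkbp5, a chaperone that dampens the glucocorticoid receptor, measured 14.98, 9.25 and 11.9 CPM in the controls and 87.2, 120.5 and 93.7 CPM in AML. Each AML library exceeded the highest control by several fold (log2 fold change 3.06 ± 0.22 (SE), edgeR adjusted p = 0.00510). Pdk4, a kinase that turns cells from glucose to fatty acid oxidation, measured 28.9, 19.4 and 19.6 CPM in the controls and 128, 174 and 147 CPM in AML (log2 fold change 2.72 ± 0.21 (SE), edgeR adjusted p = 0.00510). Hif3a, a member of the hypoxia-inducible factor family, measured 1.24, 0.591 and 1.05 CPM in the controls and 14.6, 18.8 and 17.0 CPM in AML (log2 fold change 4.13 ± 0.33 (SE), edgeR adjusted p = 0.00510). Its controls were near 1 CPM and the AML libraries close to each other. Sult1a1, a sulfotransferase, measured 39.1, 42.8 and 52.1 CPM in the controls and 156, 161 and 143 CPM in AML (log2 fold change 1.78 ± 0.14 (SE), edgeR adjusted p = 0.005396). Tsc22d3, the leucine zipper protein GILZ that carries part of the anti-inflammatory action of glucocorticoids, measured 345, 269 and 562 CPM in the controls and 1706, 1883 and 1100.0 CPM in AML (log2 fold change 1.99 ± 0.33 (SE), edgeR adjusted p = 0.0232). Lung control 3 was the highest control for Tsc22d3, and the groups did not overlap. The others that rose were Angptl4, Map3k6, Zbtb16, Klf15, Cebpd, Ddit4, Klf9 and Per1, with log2 fold changes from 1.01 for Per1 to 2.89 for Angptl4. Sgk1, a kinase gene commonly induced by the same hormones, was not among them (log2 fold change -0.09 ± 0.21 (SE), edgeR adjusted p = 0.816), and Dusp1 did not pass either (0.22, edgeR adjusted p = 0.672). Lung control 2 was lower than the other controls for Angptl4 (57.6, 35.5 and 77.5 CPM in controls 1, 2 and 3) and for Klf15 (89.02, 46.9 and 104 CPM), but higher for Zbtb16 (8.75, 25.6 and 15.01 CPM). Without lung control 2 the list median was 1.42. The glucocorticoid receptor palindrome, AGAACA, any 3 bases and TGTTCT, was searched on both strands from 250 bases before to 50 after each RefSeq start. It occurs in 0 of the 10 rising members with an entry, in 1 of the 8 others (Sgk1) and in 0.0111% of all genes.

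Some clock genes rose too. The period genes and their relatives form the negative arm of the daily clock, and Per1 is in both lists. In the circadian list 5 of 19 genes rose and none fell (median 0.81), with rises at 5, 5 and 7 without each control in turn and 0, 1 and 0 without each AML library. Per2 measured 25.6, 18.8 and 32.2 CPM in the controls and 70.6, 95.8 and 76.3 CPM in AML (log2 fold change 1.66 ± 0.22 (SE), edgeR adjusted p = 0.0174). Per3 measured 22.5, 28.1 and 26.2 CPM in the controls and 43.7, 53.1 and 47.3 CPM in AML (log2 fold change 0.91 ± 0.14 (SE), edgeR adjusted p = 0.0204), and Rora, a nuclear receptor that drives clock genes, measured 59.2, 46.2 and 82.3 CPM in the controls and 141, 153 and 129 CPM in AML (log2 fold change 1.17 ± 0.22 (SE), edgeR adjusted p = 0.0284). Arntl and Clock, the positive arm, did not pass (0.11 and -0.19, edgeR adjusted p = 0.795 and 0.677), nor did Dbp, a strongly cycling output gene (-0.07, edgeR adjusted p = 0.873), or Nr1d1 (0.34, edgeR adjusted p = 0.256). The hour at which each mouse was sampled is not in the labels used here, so its part in these differences was not tested.

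**Figure D3:**
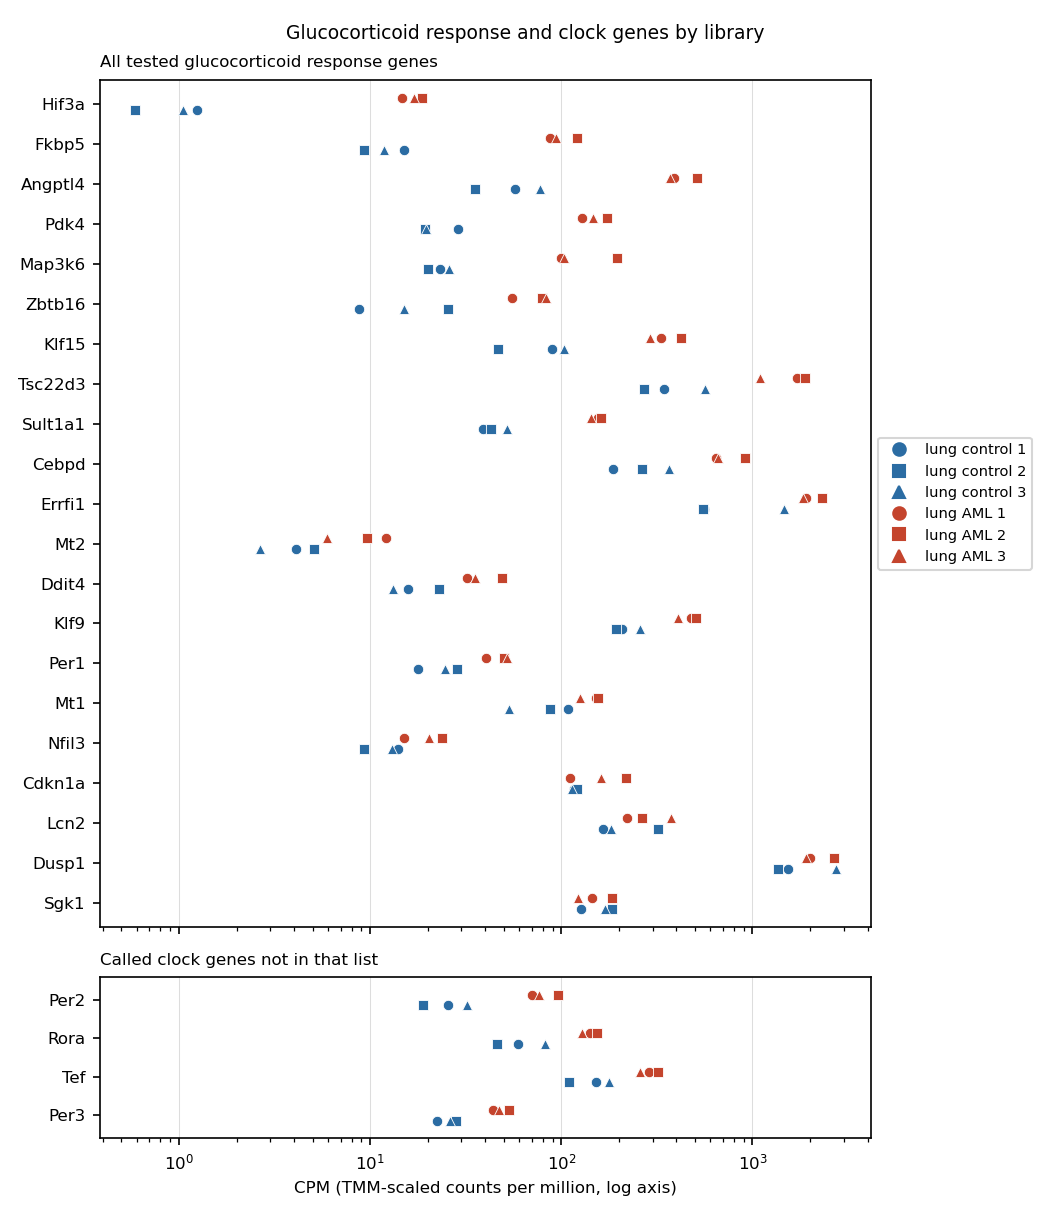
CPM on a log axis in each lung library for the 21 tested glucocorticoid response genes, ordered by fold change, and for 4 called clock genes outside that list (blue for lung control, red for lung AML, symbols for replicates). For Fkbp5 the controls lie between 9.25 and 14.98 CPM and the AML libraries between 87.2 and 120.5 CPM, while for Sgk1 and Dusp1 the groups overlap.

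Genes of MHC class II antigen presentation were lower in lung AML. These molecules present peptides to helper T cells, and in the lung they are carried by macrophages, dendritic and B cells, and also by alveolar type 2 cells and some capillary cells. Of 15 genes tested, 8 fell and none rose (median -1.27). Falls numbered 7, 8 and 7 without each control in turn and 0, 4 and 0 without each AML library, and the median without lung control 2 was -1.20.

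The X and Y boxes in the promoters of these genes bind the factors that recruit the class II transactivator Ciita, and the Y box letters CTGATTGG were searched on both strands of the window from 250 bases before to 50 after each RefSeq gene start. They occur in 3 of the 5 falling members with an entry, in 0 of the 5 other members with an entry, and in 4.70% of 27025 genes overall. The same letters occur in 4 of the 10 rising glucocorticoid genes with an entry (Hif3a, Pdk4, Per1 and Sult1a1). The stretches below are the 100 bases before the start of 2 of these genes, read 5′ to 3′ in the direction of the gene from RefSeq on GRCm38.p6, with the Y box in capitals, at chr17:34287824-34287923, minus strand and chr17:34305767-34305866, plus strand. They contain no exon of the GENCODE annotation. A match is only a description of letters, and absence from a window says nothing of binding.
H2-Aa: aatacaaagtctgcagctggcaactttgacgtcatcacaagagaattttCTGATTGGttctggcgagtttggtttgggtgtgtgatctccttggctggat
H2-Eb1: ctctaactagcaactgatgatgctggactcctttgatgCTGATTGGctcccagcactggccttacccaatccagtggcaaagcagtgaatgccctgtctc

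H2-Ab1, the beta chain of the I-A molecule, measured 1007, 1127 and 966 CPM in the controls and 379.5, 329 and 362 CPM in AML (log2 fold change -1.53 ± 0.14 (SE), edgeR adjusted p = 0.0104). H2-Aa, its alpha chain, measured 663, 823 and 677 CPM in the controls and 328, 254 and 295 CPM in AML (log2 fold change -1.30 ± 0.16 (SE), edgeR adjusted p = 0.0159). H2-Eb1, the beta chain of I-E, measured 279.6, 404 and 289 CPM in the controls and 125, 107 and 129.9 CPM in AML (log2 fold change -1.43 ± 0.18 (SE), edgeR adjusted p = 0.01602). Lung control 2 was the highest library for each of these chains, and every AML library was below every control. H2-DMa (-1.65, edgeR adjusted p = 0.0104) and H2-DMb1 (-1.27, edgeR adjusted p = 0.0142), which load peptides onto class II molecules, fell to a like extent. Cd74, the invariant chain, measured 3919, 4080.0 and 4129 CPM in the controls and 2171, 1609 and 1882 CPM in AML (log2 fold change -1.10 ± 0.17 (SE), edgeR adjusted p = 0.0198). Ciita, the transactivator of the whole set, measured 22.8, 32.6 and 33.6 CPM in the controls and 6.75, 5.87 and 10.5 CPM in AML (log2 fold change -1.95 ± 0.28 (SE), edgeR adjusted p = 0.0187). The genes for cell types that carry class II were lower in part: 4 of 15 dendritic cell genes and 0 of 16 B cell genes fell, and the pan-leukocyte list took 0.0942, 0.0939 and 0.0964% of counts in the controls and 0.0732, 0.0613 and 0.07802% in the AML libraries. Their part in the fall of class II genes was not tested.

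The class I pathway, which presents peptides from inside nearly all cells to cytotoxic T cells, was lower as well. Of 22 genes 11 fell, none rose and 22 had a negative log2 fold change (median -1.04), with falls at 11, 11 and 11 without each control in turn and 0, 1 and 0 without each AML library. The 3 inducible subunits of the immunoproteasome, the protease that cuts the peptides, led by p-value. Psmb8 measured 81.01, 118 and 82.04 CPM in the controls and 35.99, 39.4 and 41.9 CPM in AML (log2 fold change -1.26 ± 0.18 (SE), edgeR adjusted p = 0.0180). Psmb9 measured 48.3, 92.0 and 44.04 CPM in the controls and 13.3, 16.6 and 14.6 CPM in AML (log2 fold change -2.05 ± 0.30 (SE), edgeR adjusted p = 0.0198), and Psmb10 fell as well (-1.24, edgeR adjusted p = 0.0180). Among the chains, H2-M3 (-1.75, edgeR adjusted p = 0.0222), H2-T22 (-1.23, edgeR adjusted p = 0.0223), H2-Q6 (-2.74, edgeR adjusted p = 0.0377) and H2-Q7 (-3.15, edgeR adjusted p = 0.0439) fell, and so did the peptide transporter gene Tap1 (-1.33, edgeR adjusted p = 0.0426). H2-Q6 and H2-Q7 are near-identical copies, so their counts may be split between them. The classical chains H2-K1 (-0.83, edgeR adjusted p = 0.133) and H2-D1 (-0.64, edgeR adjusted p = 0.107) and B2m (-1.29, edgeR adjusted p = 0.0755), the common light chain, did not pass, with lung control 2 as the highest library in each.

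Interferon response genes divided into a set that fell and a set with no call. Of 44 members 8 fell and none rose (median -0.57), with falls at 10, 9 and 11 without each control in turn and 0, 0 and 0 without each AML library. The genes that fell included Ifi47, Iigp1, Igtp, Gbp2, Gbp3, Gbp7 and Cmpk2. Apart from Cmpk2, a mitochondrial nucleotide kinase, these encode GTPases that defend cells against intracellular microbes and are induced by interferons. The interferon-stimulated element, searched as GAAA, any 2 bases and GAAA on both strands of the same windows, occurs in 4 of the 6 falling members with an entry, in 16 of the 27 other members with an entry and in 3.99% of all genes. The 100 bases before the start of 2 of the falling genes are shown with the element in capitals, at chr3:142530236-142530335, plus strand and chr11:58199456-58199555, plus strand. Neither stretch contains a GENCODE exon, and in Gbp7 the element lies on the strand opposite to the gene.
Gbp7: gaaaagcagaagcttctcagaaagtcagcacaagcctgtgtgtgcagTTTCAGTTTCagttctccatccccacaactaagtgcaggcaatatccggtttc
Igtp: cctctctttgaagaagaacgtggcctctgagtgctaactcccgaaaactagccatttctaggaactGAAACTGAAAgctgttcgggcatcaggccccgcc

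Gbp7 measured 60.5, 120.2 and 67.5 CPM in the controls and 23.9, 18.2 and 19.2 CPM in AML (log2 fold change -2.02 ± 0.29 (SE), edgeR adjusted p = 0.0187). Gbp2 measured 61.2, 101 and 57.9 CPM in the controls and 24.9, 22.97 and 18.2 CPM in AML (log2 fold change -1.74 ± 0.25 (SE), edgeR adjusted p = 0.0187). Ifi47, an immunity-related GTPase, measured 53.5, 126 and 41.2 CPM in the controls and 7.51, 7.41 and 10.4 CPM in AML (log2 fold change -3.12 ± 0.45 (SE), edgeR adjusted p = 0.0187). All 3 had lung control 2 as the highest library, and controls 1 and 3 also stayed above every AML library. Cmpk2, by contrast, was highest in lung control 1 (53.2, 43.9 and 35.4 CPM in controls 1, 2 and 3, -1.33, edgeR adjusted p = 0.0198). Other GTPase genes of the list did not pass, among them Irgm2 (-1.15, edgeR adjusted p = 0.0522), Gbp5 (-2.21, edgeR adjusted p = 0.0611) and Irgm1 (-0.48, edgeR adjusted p = 0.152). Members such as Ifit1 (0.24, edgeR adjusted p = 0.626), Isg15 (-0.54, edgeR adjusted p = 0.394), Irf7 (0.43, edgeR adjusted p = 0.204) and Mx2 (-0.67, edgeR adjusted p = 0.389) did not pass either. Natural killer and T cells are a main source of interferon gamma. Transcripts of those cells are given below, and their part in the fall of the GTPase genes was not tested.

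**Figure D4:**
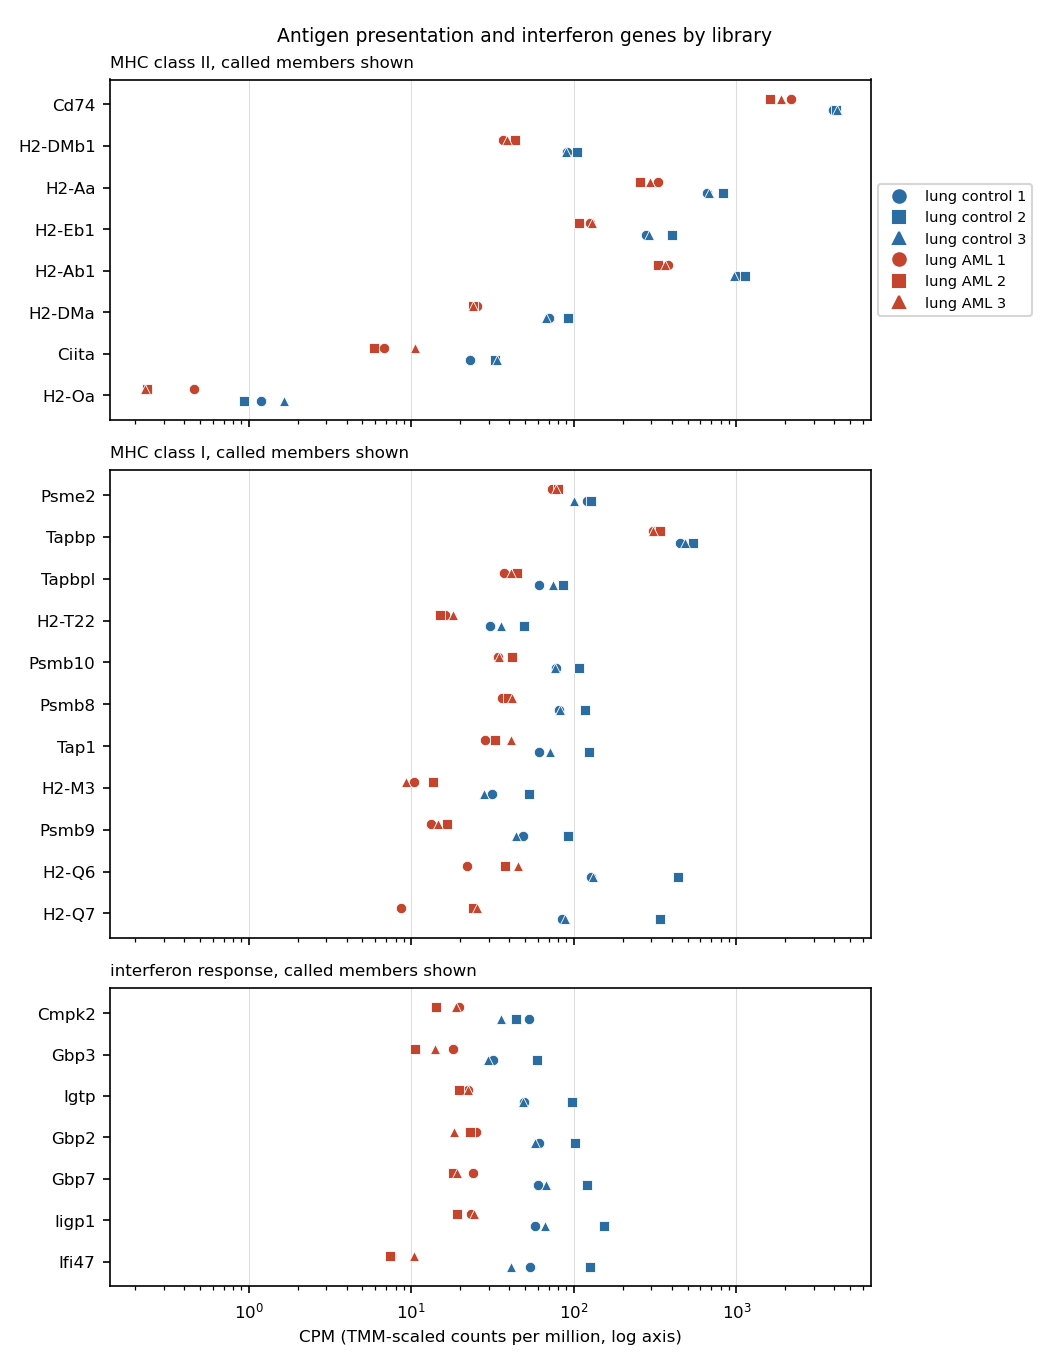
CPM on a log axis in each lung library for called members of the MHC class II, MHC class I and interferon response lists (blue for lung control, red for lung AML, symbols for replicates). H2-Ab1 lies between 966 and 1127 CPM in the controls and between 329 and 379.5 CPM in the AML libraries. No gene shown overlaps between the groups, but only called genes are drawn, and 36.6% of all tested genes did not overlap.

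Some genes of T and NK cells, dendritic cells and alveolar macrophages fell in lung AML. All 20 tested genes of the T and NK cell list had negative log2 fold changes (median -1.65) and 7 fell, with falls at 3, 5 and 4 without each control in turn and 0, 1 and 0 without each AML library. Gzma, a protease of cytotoxic granules, measured 10.4, 14.8 and 12.9 CPM in the controls and 2.96, 0.985 and 1.796 CPM in AML (log2 fold change -2.71 ± 0.42 (SE), edgeR adjusted p = 0.0198). Tcf7, a transcription factor of T cells, measured 27.98, 31.01 and 25.8 CPM in the controls and 14.2, 13.9 and 12.7 CPM in AML (log2 fold change -1.05 ± 0.14 (SE), edgeR adjusted p = 0.0175). These genes were low in every library, and the whole list took 0.0108, 0.0112 and 0.0102% of counts in the controls and 0.00439, 0.00233 and 0.00353% in the AML libraries. Of 15 dendritic cell genes 4 fell (median -1.91), with falls at 4, 6 and 4 without each control in turn and 0, 2 and 0 without each AML library. Mgl2, a lectin of conventional dendritic cells, measured 9.66, 5.46 and 11.2 CPM in the controls and 0.613, 0.788 and 0.535 CPM in AML (log2 fold change -3.76 ± 0.38 (SE), edgeR adjusted p = 0.0157). Ccl22, a chemokine of activated dendritic cells, had 61 counts over the controls and 2 over the AML libraries, a ratio of 33.9 (95% counting interval 8.999 to 287). Among alveolar macrophage genes 4 of 19 fell (median -1.27), with falls at 2, 6 and 2 without each control in turn and 0, 2 and 0 without each AML library. Abcg1, a cholesterol exporter that these cells need to clear surfactant lipid, measured 13.7, 19.8 and 12.2 CPM in the controls and 1.97, 3.31 and 2.87 CPM in AML (log2 fold change -2.49 ± 0.30 (SE), edgeR adjusted p = 0.0157). Siglecf, a lectin of alveolar macrophages and eosinophils, measured 6.48, 2.75 and 4.38 CPM in the controls and 0.869, 0.118 and 0.649 CPM in AML (log2 fold change -3.01 ± 0.67 (SE), edgeR adjusted p = 0.0428). No B cell gene was called among 16, with 14 below 0 (median -0.83), and 4 had an unadjusted p under 0.05. The DESeq2 test gave 2 falls there.

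In the general leukocyte list Il2rg fell (-1.31, edgeR adjusted p = 0.04799) and Cytip rose (0.71, edgeR adjusted p = 0.0288), out of 20, and the median was -0.05. Ptprc, the leukocyte surface protein CD45, measured 44.2, 24.5 and 40.3 CPM in the controls and 22.3, 20.4 and 24.8 CPM in AML and its groups overlapped (log2 fold change -0.69 ± 0.23 (SE), edgeR adjusted p = 0.106). Of 22 monocyte and interstitial macrophage genes 1 rose and 1 fell (median -0.10). That is 4.55% each, near the 3.32% and 4.22% of all tested genes. Cd14 rose, at 54.5, 41.8 and 53.8 CPM in the controls and 93.3, 104 and 89.2 CPM in AML (log2 fold change 0.93 ± 0.14 (SE), edgeR adjusted p = 0.0198). Ccr2 fell (-2.17, edgeR adjusted p = 0.0362). Fcgr4, an Fc receptor gene, measured 2.97, 1.704 and 2.66 CPM in the controls and 4.45, 19.8 and 39.9 CPM in AML, with lung AML 3 the highest, and missed the threshold (3.12, edgeR adjusted p = 0.05399).

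Neutrophil granule genes rose from near absence. Ngp, neutrophilic granule protein, measured 0.3302, 0.0348 and 0.0701 CPM in the controls and 64.5, 32.1 and 7.07 CPM in AML, the largest rise of any named gene (log2 fold change 7.93 ± 1.12 (SE), edgeR adjusted p = 0.0187). The call was lost in limma-voom (adjusted p = 0.165), without a filter on low counts (edgeR adjusted p = 0.0639), with all 12 libraries (edgeR adjusted p = 0.101) and without lung AML 1 (edgeR adjusted p = 0.0694). Over all settings the adjusted p ran from 2.26e-09 in DESeq2 to the limma-voom value. Ltf, lactoferrin, measured 0.289, 1.11 and 1.68 CPM in the controls and 52.9, 7.45 and 22.2 CPM in AML (log2 fold change 4.72 ± 0.89 (SE), edgeR adjusted p = 0.0314). Camp, the antimicrobial peptide cathelicidin, had 2 counts over the 3 controls and 351 over the AML libraries, a ratio of 158 (95% counting interval 43.3 to 1308). Lung AML 1 had the highest value of each gene. They encode proteins of secondary granules, made in marrow precursors, and they were the only calls in the list, out of 19 (median 0.37). The count was 2, 2 and 3 without each control in turn and 0, 3 and 1 without each AML library. Genes of mature neutrophils did not pass, with S100a8 at 0.83, edgeR adjusted p = 0.393, S100a9 at 0.69, edgeR adjusted p = 0.461 and Cxcr2 at 0.07, edgeR adjusted p = 0.935. Prtn3, a protease of immature granules, rose from 0.371, 0.139 and 0.175 CPM to 2.58, 0.867 and 2.44 CPM (3.11, edgeR adjusted p = 0.0319). In the same progenitor list Kit and Cd34 fell, and both are also made by lung endothelium (-2.87, edgeR adjusted p = 0.0319, and -1.72, edgeR adjusted p = 0.0356).

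Erythroid genes moved in opposite directions within a single list. Of 18 tested, 6 rose and 2 fell (median 0.94), with rises at 5, 5 and 5 without each control in turn and 1, 6 and 0 without each AML library and falls at 2, 2 and 2 without each control in turn and 0, 2 and 0 without each AML library. The genes that rose act in red cell precursors. Rhag, the Rh-associated glycoprotein of the red cell membrane, measured 0.949, 1.32 and 1.09 CPM in the controls and 71.3, 15.2 and 23.9 CPM in AML (log2 fold change 5.03 ± 0.66 (SE), edgeR adjusted p = 0.0171). Klf1, a transcription factor that drives red cell maturation, measured 0.743, 0.626 and 0.701 CPM in the controls and 16.2, 4.93 and 8.901 CPM in AML (log2 fold change 3.86 ± 0.49 (SE), edgeR adjusted p = 0.0163). Gata1, its partner in red cells and megakaryocytes, measured 1.16, 0.765 and 1.19 CPM in the controls and 20.7, 6.62 and 11.6 CPM in AML (log2 fold change 3.64 ± 0.48 (SE), edgeR adjusted p = 0.0171). Ermap (3.94, edgeR adjusted p = 0.0157), Car1 (3.51, edgeR adjusted p = 0.0215) and Hemgn (2.22, edgeR adjusted p = 0.0394) rose with them, and outside the list so did Rhd (3.61, edgeR adjusted p = 0.0231) and the repressor Gfi1b (3.80, edgeR adjusted p = 0.0314), both among the 12 largest rises. The controls lay near 1 CPM for most of these, and lung AML 1 was the highest library in all of them but Hemgn. The genes that fell were globins. Hbb-bs, an adult beta globin, measured 135, 102 and 71.9 CPM in the controls and 8.66, 5.71 and 18.7 CPM in AML (log2 fold change -3.23 ± 0.48 (SE), edgeR adjusted p = 0.0198). Hba-a2, an alpha globin, measured 31.5, 18.6 and 15.3 CPM in the controls and 1.201, 0.433 and 2.29 CPM in AML (log2 fold change -4.05 ± 0.60 (SE), edgeR adjusted p = 0.0198). Hba-a1 (-1.74, edgeR adjusted p = 0.117), Hbb-bt (-1.96, edgeR adjusted p = 0.0941) and Alas2, the heme synthesis enzyme of red cells (-2.55, edgeR adjusted p = 0.0574), were lower without passing. The globin copies are nearly identical in sequence, so reads may be split among them.

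Trap1a, an X-linked tumour rejection antigen gene that is silent in most adult tissues and active in some mouse tumours, measured 0.124, 0.278 and 0.0701 CPM in the controls and 36.4, 5.48 and 9.97 CPM in AML (log2 fold change 6.73 ± 0.97 (SE), edgeR adjusted p = 0.0188). In the marrow libraries of the same series, scaled together with the lung, it measured 0.186, 0.201 and 2.81 CPM in controls and 221, 243 and 206 CPM in AML, so the lung AML values lay between those of marrow controls and marrow AML. Lung AML 1, with the highest Trap1a, also had the highest Rhag, Klf1, Ltf and Ngp, and lung AML 2 had the lowest Trap1a, Rhag, Klf1 and Ltf, while Ngp was lowest in lung AML 3. Whether transplanted cells in the lung gave these transcripts was not tested. Trp53, the gene altered in the transplanted cells, measured 46.3, 50.3 and 45.5 CPM in the controls and 52.8, 41.5 and 38.7 CPM in AML, with groups that overlapped (log2 fold change -0.10 ± 0.15 (SE), edgeR adjusted p = 0.716). A count per gene does not show which allele the reads came from.

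**Figure D5:**
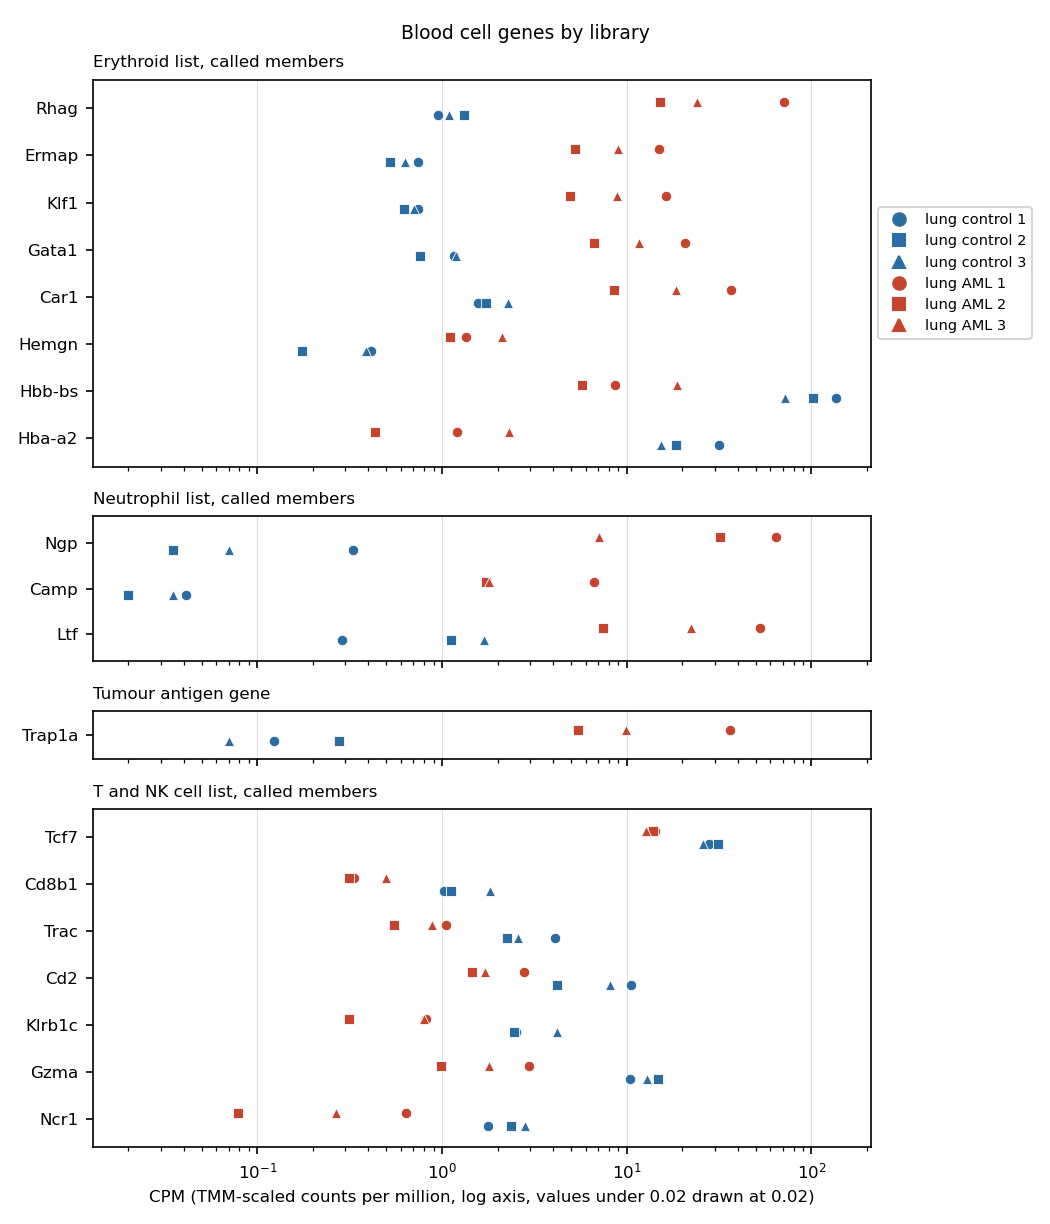
CPM on a log axis in each lung library for the called erythroid, neutrophil and T and NK cell genes and for Trap1a (blue for lung control, red for lung AML, symbols for replicates, values under 0.02 drawn at 0.02). Rhag lies between 0.949 and 1.32 CPM in the controls and between 15.2 and 71.3 CPM in the AML libraries, while Hbb-bs lies between 71.9 and 135 CPM in the controls and between 5.71 and 18.7 CPM in the AML libraries.

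Alveolar epithelial genes had the largest share of counts. Rises made up 3.57% and falls 0% of the alveolar type 2 list, beside 3.32% and 4.22% of all tested genes. In the alveolar type 2 list 1 of 28 genes rose and none fell (median 0.22), and the epithelial junction and keratin list had 0 calls among 25 (median 0.09; 5 with an unadjusted p under 0.05 in edgeR, and 1 rise and 1 fall in DESeq2). Sftpd, surfactant protein D, a collectin of innate defence, measured 3052, 3001 and 3943 CPM in the controls and 5328, 6199 and 6571 CPM in AML (log2 fold change 0.86 ± 0.18 (SE), edgeR adjusted p = 0.0394). Sftpc did not pass (log2 fold change 0.27 ± 0.21 (SE), edgeR adjusted p = 0.430), and neither did Epcam, an adhesion molecule of epithelia (log2 fold change 0.03 ± 0.16 (SE), edgeR adjusted p = 0.932). The sign of Epcam turned negative in some other fits. Sftpa1, surfactant protein A, was higher without passing (0.65, edgeR adjusted p = 0.0847). Ctsh, a protease that processes surfactant proteins, is outside the lists and was among the most abundant risers, at 933, 752 and 1008 CPM in the controls and 2186, 2302 and 2308 CPM in AML (log2 fold change 1.34 ± 0.16 (SE), edgeR adjusted p = 0.0159).

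Alveolar type 1 genes, which mark the thin cells of gas exchange, split into 2 rises and 2 falls of 21 (median -0.34). Hopx, a homeobox gene of these cells, measured 151, 149 and 94.9 CPM in the controls and 31.5, 51.7 and 36.03 CPM in AML (log2 fold change -1.73 ± 0.26 (SE), edgeR adjusted p = 0.0198), and Cav1, caveolin 1, which endothelium makes as well, measured 593, 1390.5 and 656 CPM in the controls and 81.5, 156 and 93.8 CPM in AML (log2 fold change -3.00 ± 0.43 (SE), edgeR adjusted p = 0.0187). Lmo7 (0.91, edgeR adjusted p = 0.0186) and Spock2 (1.81, edgeR adjusted p = 0.0314) rose. Ager, the receptor RAGE and a common type 1 marker, did not pass (-0.34, edgeR adjusted p = 0.216). Both falls and both rises were lost without lung AML 1 and without lung AML 3.

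In the airway lists, falls made up 5.26% of ciliated genes and 5.56% of club and secretory genes, beside 4.22% of all tested genes. Rises made up 0% and 5.56%, beside 3.32%. All 19 ciliated cell genes had negative log2 fold changes (median -2.45), but 1 fell, Dnaic1, a dynein arm gene at 51.3, 15.99 and 8.87 CPM in the controls and 3.94, 3.31 and 3.06 CPM in AML (log2 fold change -2.88 ± 0.65 (SE), edgeR adjusted p = 0.0457). The count of falls was 7, 0 and 18 without each control in turn and 0, 0 and 0 without each AML library. With all 6 libraries, 18 ciliated genes had an unadjusted p under 0.05 in edgeR, and 18 fell in DESeq2. Lung control 1 was far above the other controls in ciliated genes: Foxj1, the master regulator of ciliation, measured 193, 57.9 and 22.4 CPM in controls 1, 2 and 3 and 14.4, 15.4 and 20.3 CPM in the AML libraries (-2.45, edgeR adjusted p = 0.0832). Club and secretory cell genes had a median of 1.41 with 1 rise and 1 fall among 18. Chad, chondroadherin, rose at 1.11, 3.58 and 5.75 CPM in the controls and 51.5, 30.4 and 26.4 CPM in AML (log2 fold change 3.37 ± 0.58 (SE), edgeR adjusted p = 0.0254). Scgb1a1, the main secretoglobin of club cells, measured 339, 670.3 and 486 CPM in the controls and 2426, 913 and 1638 CPM in AML, with every AML library above every control, and just missed the threshold (log2 fold change 1.73 ± 0.41 (SE), edgeR adjusted p = 0.0507). Bpifa1, an antimicrobial protein of upper airways, lay between 208 and 1819 CPM within the AML group and did not pass (log2 fold change 4.83 ± 1.19 (SE), edgeR adjusted p = 0.0565). Retnla, a resistin-like cytokine, fell (-1.84, edgeR adjusted p = 0.0374).

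Mesenchymal lists held both rises and falls. Rises made up 4% and falls 8% of the fibroblast list, beside 3.32% and 4.22% of all tested genes. They made up 5.26% and 10.5% of the pericyte and smooth muscle list. In the matrix list each made up 3.1%, and in the mesothelial list 9.09%. Among fibroblast genes 1 rose and 2 fell of 25 (median 0.40), with rises at 0, 2 and 7 without each control in turn and 0, 0 and 0 without each AML library. Falls numbered 0, 4 and 1 without each control in turn and 0, 0 and 0 without each AML library. Col3a1, a fibrillar collagen, measured 1314, 400.4 and 1684 CPM in the controls and 242, 141 and 162 CPM in AML (log2 fold change -2.64 ± 0.53 (SE), edgeR adjusted p = 0.0348). Col1a1 fell with it (-1.81, edgeR adjusted p = 0.0466). Inmt, a methyltransferase of alveolar fibroblasts, measured 466, 165 and 617 CPM in the controls and 1621, 2296 and 1425 CPM in AML (log2 fold change 2.10 ± 0.48 (SE), edgeR adjusted p = 0.0473). Lung control 2, with the lowest fibroblast share, was the lowest control for Col3a1 and for Inmt. Lox, an enzyme that cross-links collagen and elastin, measured 15.8, 9.005 and 27.2 CPM in the controls and 289.7, 509 and 389 CPM in AML (log2 fold change 4.51 ± 0.46 (SE), edgeR adjusted p = 0.0157). Every AML library was far above the highest control, and Lox was 1 of 32 matrix genes to rise, with Col18a1 the single fall (-1.18, edgeR adjusted p = 0.0234). Gpx3, a secreted glutathione peroxidase, measured 729.7, 211 and 856 CPM in the controls and 3618, 5613 and 2935 CPM in AML (log2 fold change 2.76 ± 0.55 (SE), edgeR adjusted p = 0.0337). Kcnj8, a potassium channel subunit of pericytes, measured 27.2, 6.57 and 29.8 CPM in the controls and 123, 187 and 103 CPM in AML (log2 fold change 2.70 ± 0.56 (SE), edgeR adjusted p = 0.0374), while Mcam (-2.08, edgeR adjusted p = 0.0306) and Mylk (-0.52, edgeR adjusted p = 0.0344) fell out of 19 pericyte and smooth muscle genes. Pdgfra, a receptor of fibroblasts (1.89, edgeR adjusted p = 0.0601), and Pdgfrb, that of pericytes (-0.49, edgeR adjusted p = 0.598), did not pass. In the mesothelial list Upk1b rose (2.13, edgeR adjusted p = 0.0171) and Aldh1a2, a retinoic acid synthase, fell (-3.30, edgeR adjusted p = 0.01998).

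Outside the lists, Abcb4, a phospholipid transporter, measured 0.413, 0.7997 and 0.421 CPM in the controls and 17.7, 6.38 and 9.78 CPM in AML (log2 fold change 4.36 ± 0.52 (SE), edgeR adjusted p = 0.0157), and Slc13a4, a sulfate transporter, measured 1.03, 0.313 and 1.09 CPM in the controls and 10.8, 22.4 and 11.8 CPM in AML (log2 fold change 4.21 ± 0.54 (SE), edgeR adjusted p = 0.0167). Both were among the 12 largest rises, which were chosen only from genes whose groups did not overlap.

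Genes of foreign compound metabolism and antioxidant defence included several strong rises. In the xenobiotic list 5 of 20 rose and 4 fell (median 0.15), with rises at 3, 3 and 6 without each control in turn and 0, 3 and 1 without each AML library. Fmo2, the main flavin monooxygenase of the lung, measured 236, 183 and 319 CPM in the controls and 2299, 2648 and 1785 CPM in AML (log2 fold change 3.19 ± 0.27 (SE), edgeR adjusted p = 0.00734). Cyp2b10 (2.39, edgeR adjusted p = 0.0218), Aldh3a1 (2.10, edgeR adjusted p = 0.0157) and Aox3 (1.06, edgeR adjusted p = 0.0462) were among the other rises. Fmo1 fell, at 246, 512 and 319 CPM in the controls and 43.8, 65.9 and 31.9 CPM in AML (log2 fold change -2.93 ± 0.37 (SE), edgeR adjusted p = 0.0167), as did Ahr, the aryl hydrocarbon receptor that governs Cyp1a1, at 56.1, 137 and 75.4 CPM in the controls and 17.7, 18.8 and 19.1 CPM in AML (log2 fold change -2.27 ± 0.33 (SE), edgeR adjusted p = 0.0187). Cyp4b1 measured 689, 1156 and 668 CPM in the controls and 184, 292 and 219.6 CPM in AML (log2 fold change -1.85 ± 0.28 (SE), edgeR adjusted p = 0.0198). Among 29 antioxidant genes 4 rose and none fell (median 0.00). The count was 3, 4 and 4 without each control in turn and 1, 2 and 1 without each AML library. Gsta3, a glutathione transferase, measured 22.8, 25.7 and 21.7 CPM in the controls and 97.6, 143 and 106 CPM in AML (log2 fold change 2.31 ± 0.18 (SE), edgeR adjusted p = 0.00510). Prdx6, a peroxiredoxin that also degrades surfactant lipid, measured 624, 499 and 617 CPM in the controls and 1680.2, 1563 and 1409 CPM in AML (log2 fold change 1.42 ± 0.16 (SE), edgeR adjusted p = 0.0157). Osgin1, an NRF2 target, rose (edgeR adjusted p = 0.0271) and measured 50.6, 42.2 and 58.6 CPM in the controls and 81.1, 112 and 110.1 CPM in AML, while other targets such as Nqo1 (-0.42, edgeR adjusted p = 0.525), Gclm (-0.34, edgeR adjusted p = 0.407) and Hmox1 (0.09, edgeR adjusted p = 0.793) did not pass.

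Among lipid genes, some of fatty acid uptake and oxidation rose. Of 27 uptake and oxidation genes 6 rose and none fell (median 0.28), with rises at 3, 4 and 6 without each control in turn and 1, 2 and 1 without each AML library. Pdk4 and Angptl4, an inhibitor of lipoprotein lipase, are also in the glucocorticoid list. Angptl4 measured 57.6, 35.5 and 77.5 CPM in the controls and 387, 509.6 and 371 CPM in AML (log2 fold change 2.89 ± 0.31 (SE), edgeR adjusted p = 0.0157). The others included Pnpla2, the main triglyceride lipase (0.78, edgeR adjusted p = 0.0254), Acadl (0.61, edgeR adjusted p = 0.0445) and Fabp3 (1.85, edgeR adjusted p = 0.0344). In the synthesis list 2 genes fell and 1 rose of 31 (median 0.12). Scd1, the desaturase that makes oleic acid, measured 5328, 4152 and 4738 CPM in the controls and 2394, 2445 and 3070.4 CPM in AML (log2 fold change -0.85 ± 0.18 (SE), edgeR adjusted p = 0.0394). Elovl1, an elongase, measured 1221, 1153 and 1353 CPM in the controls and 551, 641 and 696 CPM in AML (log2 fold change -0.98 ± 0.15 (SE), edgeR adjusted p = 0.0204), and Lpin1, a phosphatidate phosphatase, rose (1.18, edgeR adjusted p = 0.0187). Cholesterol synthesis had 1 rise, Pmvk (1.51, edgeR adjusted p = 0.01901), and 1 fall, Dhcr7 (-0.73, edgeR adjusted p = 0.0337), among 24. Bnip3, a mitophagy receptor (1.48, edgeR adjusted p = 0.0159), and Hk2, a hexokinase (1.19, edgeR adjusted p = 0.0209), were 2 of 5 rises among 33 hypoxia and glycolysis genes (median 0.17). The count was 3, 4 and 5 without each control in turn and 0, 1 and 0 without each AML library, and none fell.

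In the cell cycle and stress lists most genes had no call. Rises made up 10.5% of the proliferation list, 13.8% of p53 targets and 10% of the NF-kappaB list, beside 3.32% of all tested genes. They made up 6.67% of immediate early genes, 6.45% of unfolded protein and amino acid response genes and 5.26% of heat shock genes. Of 38 proliferation genes 4 rose and none fell, 35 had a positive log2 fold change (median 0.88), and rises were 1, 1 and 1 without each control in turn and 0, 1 and 0 without each AML library. Mcm7, a subunit of the replicative helicase, measured 26.7, 27.1 and 27.7 CPM in the controls and 71.7, 54.2 and 48.7 CPM in AML (log2 fold change 1.10 ± 0.17 (SE), edgeR adjusted p = 0.0195), and the proliferation antigen gene Mki67 did not pass (0.48, edgeR adjusted p = 0.621). Of 29 p53 targets 4 rose and 1 fell. Sesn1, a stress-induced inhibitor of growth signalling, measured 45.03, 45.9 and 58.1 CPM in the controls and 136, 157 and 109 CPM in AML (log2 fold change 1.43 ± 0.18 (SE), edgeR adjusted p = 0.0159), while Cdkn1a, the cell cycle inhibitor p21 (0.49, edgeR adjusted p = 0.223), and Mdm2, the feedback inhibitor of p53 (-0.33, edgeR adjusted p = 0.408), did not pass. Among 30 immediate early genes Gadd45b (1.24, edgeR adjusted p = 0.02896) and Myc (1.53, edgeR adjusted p = 0.0437) rose and Klf2, a factor induced by blood flow in endothelium, fell at 273, 813 and 400.1 CPM in the controls and 51.9, 119 and 80.2 CPM in AML (log2 fold change -2.57 ± 0.48 (SE), edgeR adjusted p = 0.0312). Fos (0.57, edgeR adjusted p = 0.154), Jun (0.28, edgeR adjusted p = 0.394) and Egr1 (0.65, edgeR adjusted p = 0.311) did not pass. In the NF-kappaB list Cebpd (1.44, edgeR adjusted p = 0.0319), Tnfaip3 (1.08, edgeR adjusted p = 0.0351) and Socs3 (1.01, edgeR adjusted p = 0.0413) rose, and Csf1 (-1.34, edgeR adjusted p = 0.0171) and Vcam1 fell, out of 30. The heat shock list had 1 rise, Hspb8 (1.39, edgeR adjusted p = 0.0157), and 1 fall, Hspa1b (-1.43, edgeR adjusted p = 0.0159), among 19. Sesn2 (0.80, edgeR adjusted p = 0.0272) and Trib3 (0.93, edgeR adjusted p = 0.03797) rose among 31 genes of the unfolded protein and amino acid response.

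Lists of respiratory chain and ribosomal genes had no call. Oxidative phosphorylation had 0 calls among 49 (median -0.16; 2 with an unadjusted p under 0.05, 0 in DESeq2), although 8 fell without lung control 3. Cytosolic ribosomal proteins had 0 among 44 (median 0.29; 9 with an unadjusted p under 0.05, 3 rises in DESeq2), although 5 rose without lung control 2. The 9 mitochondrially encoded genes tested had 0 calls, 0 with an unadjusted p under 0.05 and 0 in DESeq2. The chemokine and cytokine list had 5 falls and no rise among 29 (median -0.26), which were Tnfsf10, Il1a (-4.34, edgeR adjusted p = 0.0343), Cx3cl1 (-2.13, edgeR adjusted p = 0.0198), Cxcl12 (-1.47, edgeR adjusted p = 0.0411) and Csf1. Among 25 Wnt and FGF genes 2 rose and 3 fell, with Lgr5, a Wnt co-receptor, at 0.3302, 0.834 and 3.12 CPM in the controls and 12.4, 14.7 and 12.4 CPM in AML (log2 fold change 3.19 ± 0.72 (SE), edgeR adjusted p = 0.0471) and the ligand Wnt7b falling (-1.64, edgeR adjusted p = 0.0187). Thbd, the endothelial anticoagulant receptor thrombomodulin, fell (-2.41, edgeR adjusted p = 0.0429) and Ptgis, prostacyclin synthase, rose (1.51, edgeR adjusted p = 0.0180) among 23 coagulation genes. Cp, the copper oxidase ceruloplasmin, rose (1.72, edgeR adjusted p = 0.0268) in the iron list of 18, with Ltf the other rise. The mucosal defence list had 2 rises and no fall among 24, and the mast cell and basophil list had 2 falls and no rise among 9. These falls were Gata2 (-2.24, edgeR adjusted p = 0.0254) and Siglecf, which is also in the alveolar macrophage list. The median of the mast cell and basophil list was 0.64, with 5 of 9 genes positive. The platelet list had 0 calls among 15 (6 with an unadjusted p under 0.05, 0 rises and 5 falls in DESeq2), and so had the alveolar transitional list among 20 (6, 3 and 2).

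The same comparison exists in the marrow libraries, which come from the same kinds of mice. Across all 12 libraries the difference of the 2 AML effects passed the threshold for 5567 of 18147 genes (30.7%), and among the 24 genes with the largest rises and falls in the lung it passed for 13. These 24 were chosen for a large lung effect, which is a part of that difference, so the 2 counts cannot be compared. Klf1 had opposite signs in the tissues, at 3.88 in the lung and -2.75 in the marrow on the log2 scale, and the difference was 6.63 ± 0.56 (SE), edgeR adjusted p = 8.14e-05. Its marrow libraries measured 839, 826.5 and 841 CPM in controls and 171, 111 and 89.8 CPM in AML. On the same scale the lung libraries measured 0.783, 0.692 and 0.740 CPM in controls and 17.5, 5.35 and 9.70 CPM in AML. The globin gene Hbb-bs was lower in both (-3.21 in the lung and -4.10 in the marrow), and its difference did not pass (0.90 ± 1.45 (SE), edgeR adjusted p = 0.686). Apln fell in the lung (-4.90), and its marrow effect was 3.32 (edgeR adjusted p = 0.0377), with a difference of -8.22 ± 1.67 (SE), edgeR adjusted p = 0.00398. The marrow libraries measured 0.419, 1.05 and 0.2396 CPM in controls and 7.899, 9.55 and 0.0349 CPM in AML, so marrow AML 3 lay below every marrow control. For Trap1a the difference did not pass (-1.04 ± 1.60 (SE), edgeR adjusted p = 0.6702), and for Aplnr it did not either (-2.67 ± 1.22 (SE), edgeR adjusted p = 0.124).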

How the data were processed

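RNA was amplified from VE-cadherin-labelled lung and marrow samples with low-input kits and sequenced, per the labels' protocols. The submitters' processing notes name bcl2fastq, STAR and mm10, without versions. The authors deposited raw counts per gene symbol, and the unstranded counts of the 6 lung libraries were used, so reads of overlapping or antisense genes are not separated. Counts were tested with edgeR 4.0.16 (R 4.3.3): genes kept with filterByExpr (minimum count 10, minimum total 15), TMM scaling, robust quasi-likelihood F test, group as the only term, Benjamini-Hochberg adjusted p under 0.05. CPM values use TMM-scaled totals, and the SE of a log2 fold change was taken from the F statistic. limma 3.58.1 and DESeq2 1.42.0 served as alternatives. The procedure was tested on simulated data.

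Genes named were the 12 largest rises and falls among called genes that reached a mean of 10 CPM in either group and whose groups did not overlap (predicted genes, receptor segments and pseudogenes passed over), up to 4 members per list by p, 8 abundant called genes per direction, and Cdh5, Pecam1, Ptprc, Sftpc, Epcam and Trp53. The comparison, rule and lists were chosen with earlier results of these data known. Shares of counts were compared by exact permutation. Some genes are not reported here.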

Additional observations from a re-analysis of the deposited data

Results flagged for a closer look

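Among the 24 genes with the largest rises and falls in the lung, 13 had an AML effect that differed between lung and marrow by edgeR's interaction test over all 12 libraries. The 24 genes were picked for a large lung effect, which enters this test, so the count does not show how often the effects differ. Values are lung effect minus marrow effect on the log2 scale. The red cell precursor genes Rhag (6.21), Klf1 (6.63), Gata1 (5.66), Gfi1b (5.47) and Rhd (6.63) were higher in lung AML and had negative marrow effects, which for Rhag did not pass (-1.17, edgeR adjusted p = 0.0621). Abcb4 (6.47) was likewise positive in the lung and fell in the marrow (-2.10, edgeR adjusted p = 0.00271). For Abcb4 and each of these red cell genes, every lung library lay below every marrow library in CPM. The neutrophil granule genes Ngp (10.13) and Ltf (10.85) rested on marrow control 1: the marrow measured 34.7, 0.553 and 0.1797 CPM in controls and 0.0648, 0.4201 and 7.12 CPM in AML for Ngp, and 18.2, 0.0503 and 0 CPM and 0.0648, 0 and 0.174 CPM for Ltf. Without marrow control 1 the differences were 5.15 for Ngp (edgeR adjusted p = 0.115) and 3.29 for Ltf (edgeR adjusted p = 0.4698), and 11 of the 24 genes passed. Ngp also missed the threshold without lung control 2 (edgeR adjusted p = 0.0516) and without lung control 3 (edgeR adjusted p = 0.0558). With a replicate block Ngp, Ltf and Tnfsf10 did not pass (edgeR adjusted p = 0.117, 0.123 and 0.07401). Slc13a4 (6.41) was near 0 in every marrow library, at 0.0465, 0.301 and 0.299 CPM in controls and 0.0648, 0 and 0.0698 CPM in AML, and its marrow effect did not pass (edgeR adjusted p = 0.0965). Lox (3.03) was positive in both tissues, at 4.54 in the lung and 1.51 in the marrow. Ackr4 (-6.27), Apln (-8.22) and Tnfsf10 (-4.96) were lower in lung AML with marrow effects of 1.20, 3.32 and 0.19, that of Tnfsf10 without passing (edgeR adjusted p = 0.893).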

How the results depend on the processing

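The 1239 calls became 3295 (1295 higher, 2000 lower) in DESeq2, 299 (133 and 166) when tested against a 1.5-fold change, and 423 (212 and 211) with all 12 libraries in the model. Leaving out 1 library at a time gave 11 to 2001 calls, 8 to 805 higher and 3 to 1196 lower, with the lowest values without lung AML 1. Other scalings, filters, limma-voom and the dispersion option gave 1061 to 1437. Of 158 called genes named by the rule, all kept their direction wherever measured under these settings, but 76 stayed called with all 12 libraries, 67 against a 1.5-fold change, 121 without a filter on low counts, 127 with a replicate block and 145 in limma-voom. With a replicate block there were 942 calls, 310 of them higher. Same-numbered libraries had correlations of deviations of 0.17, -0.03 and -0.19, and differently numbered libraries had values from -0.25 to 0.31. With 3 libraries per group these values cannot decide whether the numbers pair the samples. With the block Cdh5 and Pecam1 passed (edgeR adjusted p = 0.00336 and 0.0122), and 27 of the 28 pan-endothelial genes fell. Genes without a call changed sign when 1 library was left out, with the lowest and highest values -1.22 and 0.27 for mt-Rnr1, -0.60 and 0.041 for mt-Nd1, -1.01 and 0.058 for mt-Nd2, -0.59 and 0.22 for mt-Nd4, -0.040 and 0.26 for H3f3b, -0.030 and 0.085 for H1f0, and -0.086 and 0.15 for Epcam. The mitochondrial genes turned without lung control 2 alone. With library totals H1f0 was -0.045 and Epcam -0.030. The cause of these changes was not tested. Only 3 libraries per group limit the precision, and depth also limits genes with few counts in a group, such as Camp and Ccl22.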

Other observations

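Genes outside the naming rule, chosen after their values were seen, included the smallest p-value of the comparison. Ubb-ps, a ubiquitin B pseudogene, measured 72.1, 45.8 and 55.2 CPM in the controls and 1.89, 1.73 and 1.68 CPM in AML (log2 fold change -5.02 ± 0.23 (SE), edgeR adjusted p = 0.00135). In the marrow its AML effect was 0.68 (edgeR adjusted p = 0.118), and the difference between the tissues was -5.68 ± 0.49 (SE), edgeR adjusted p = 8.14e-05. A pseudogene's reads can be shared with its parent gene, and this was not tested. Hpcal4, a neuronal calcium-binding protein gene, measured 5.65, 9.32 and 6.24 CPM in the controls and 0.0767, 0.0394 and 0.0764 CPM in AML (log2 fold change -6.66 ± 0.44 (SE), edgeR adjusted p = 0.00510). Every AML library was below every control for both genes. Elane, neutrophil elastase, had 0 counts over the lung controls and 290 over the lung AML libraries, at least 86.9-fold higher against a floor of 3 counts for the whole group. It was not among the tested genes, although its total was above the filter's minimum of 15. Not every lung AML library therefore reached the level that the filter asks for, which the pooled ratio does not show.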
